A study of Cavia porcellus with 6 samples.

Results

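The genes described here are 10 genes of cartilage-type extracellular matrix, taken by exact symbol from a table of 32193 genes measured by RNA sequencing in the posterior pole of the guinea pig (Cavia porcellus) sclera. They are the collagen genes Col2a1, Col9a1, Col9a2, Col9a3, Col11a1 and Col11a2, the aggrecan gene Acan, the transcription factor gene Sox9, and Comp and Chad, which encode cartilage oligomeric matrix protein and chondroadherin. All 10 were in the table and all 10 passed the filter on low counts. The study compared right eyes of form-deprived guinea pigs (FDM, 3 libraries), whose vision is obscured to induce axial myopia, with right eyes of a control group (NC, 3 libraries), both sampled on day 28 of induction. The sources used here do not give strain, age, sex or the way in which vision was obscured, and no library is labelled with quercetin, the compound of the series title. Since a group holds right eyes only, every library was treated as a separate animal. The libraries held 10377397 to 17534982 counts.

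In cartilage, collagen II forms the core of thin fibrils, collagen XI lies within them and limits their width, and collagen IX, assembled from the products of Col9a1, Col9a2 and Col9a3, decorates their surface. Aggrecan fills the space between fibrils and holds water, while COMP and chondroadherin link collagen to other matrix proteins and to cells. SOX9 is the transcription factor that switches on most of these genes in chondrocytes. The sclera of birds contains a cartilage layer, whereas that of mammals is a fibrous tissue built mainly of collagen I. Some of these genes are also active elsewhere in the eye, as collagens II, IX and XI form the fibrils of the vitreous and SOX9 is present in Müller glia and pigment epithelium of the mouse retina.

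The 6 libraries differed widely in markers of cell types that a dissection of the posterior eye can hold. Of 27 photoreceptor markers 26 were measured, and their summed level was 296.1, 1901 and 14076 CPM (counts scaled to a common library size, the usual unit of relative abundance, after TMM scaling) in FDM 1, 2 and 3 and 10110, 32089 and 636.8 CPM in NC 1, 2 and 3. In FDM 1, 14 of these 26 markers had no count. The 11 measured Müller glia markers had a mean log2 CPM of 1.80 in FDM 1, where 4 of them had no count, against 5.30 to 6.89 in the other libraries. Their summed level was 1735 CPM in FDM 1, above the 1434 CPM of FDM 3. The 15 fibroblast markers, which include Col1a1 and Dcn, were detected in all 6 libraries. Their sums were 38060, 18775 and 64455 CPM in FDM 1, 2 and 3 and 58987, 6555 and 17514 CPM in NC 1, 2 and 3. The summed level of the 13 measured skeletal muscle markers ranged from 116.1 CPM in NC 1 to 70503 CPM in FDM 2. Log2 fold changes, FDM against NC, were negative for 26 of 26 photoreceptor markers tested (median -1.40), 18 of 18 inner retina markers (-1.66), 10 of 11 Müller glia markers (-0.90) and 8 of 12 pigment epithelium markers (-0.53). They were positive for 13 of 13 skeletal muscle markers (1.67), 12 of 15 fibroblast markers (0.54) and 8 of 9 melanocyte markers (0.65). None of these markers passed edgeR's test after adjustment. Its unadjusted p lay below 0.05 for 2 of 18 inner retina and 1 of 12 pigment epithelium markers, beside 0.954% of all genes. None of the other marker lists had such a marker. The pigment epithelium marker was Rgr, with a log2 fold change of -1.86 and an unadjusted p of 0.00688 in edgeR's test. In bulk tissue fewer cells of a type and less RNA per cell cannot be told apart. The library FDM 1 also lacked any count for 223 of the 8061 genes averaging more than 300 counts, and NC 1 for 96 of them, against 0 to 4 in the other libraries.

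None of the 10 genes passed the test of form-deprived against control sclera, and their libraries overlapped between the groups. In edgeR's quasi-likelihood test 0 of 10 had an adjusted p below 0.05, each adjusted p being 0.999999, and 0 of all 16348 genes tested passed, a background of 0%. At an unadjusted p below 0.05 the counts were 0 of 10 for these genes and 156 of all genes (0.954%). DESeq2 and limma-voom also called 0 of the 10, where they called 9 (0.0551%) and 0 of all genes, the 9 being 0.111% of the 8088 genes that DESeq2 gave an adjusted p. Each of the 10 genes was given one. They had 281 (1.72%) and 168 (1.03%) genes at an unadjusted p below 0.05, none of the 10 among them. Log2 fold changes, FDM against NC, were negative for 6 of the 10 genes and positive for 4, with a median of -0.16, beside a median of 0.020 over all genes tested. The FDM and NC libraries overlapped for all 10 genes, so that 0 of 10 lay wholly above or wholly below, where 5.55% of all genes did. For 1 gene, 3 against 3 libraries allow no two-sided exact permutation p below 0.1. Scaling by total counts in place of TMM moved the median of all genes to -0.23 and that of the 10 genes to -0.37.

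**Figure D1:**
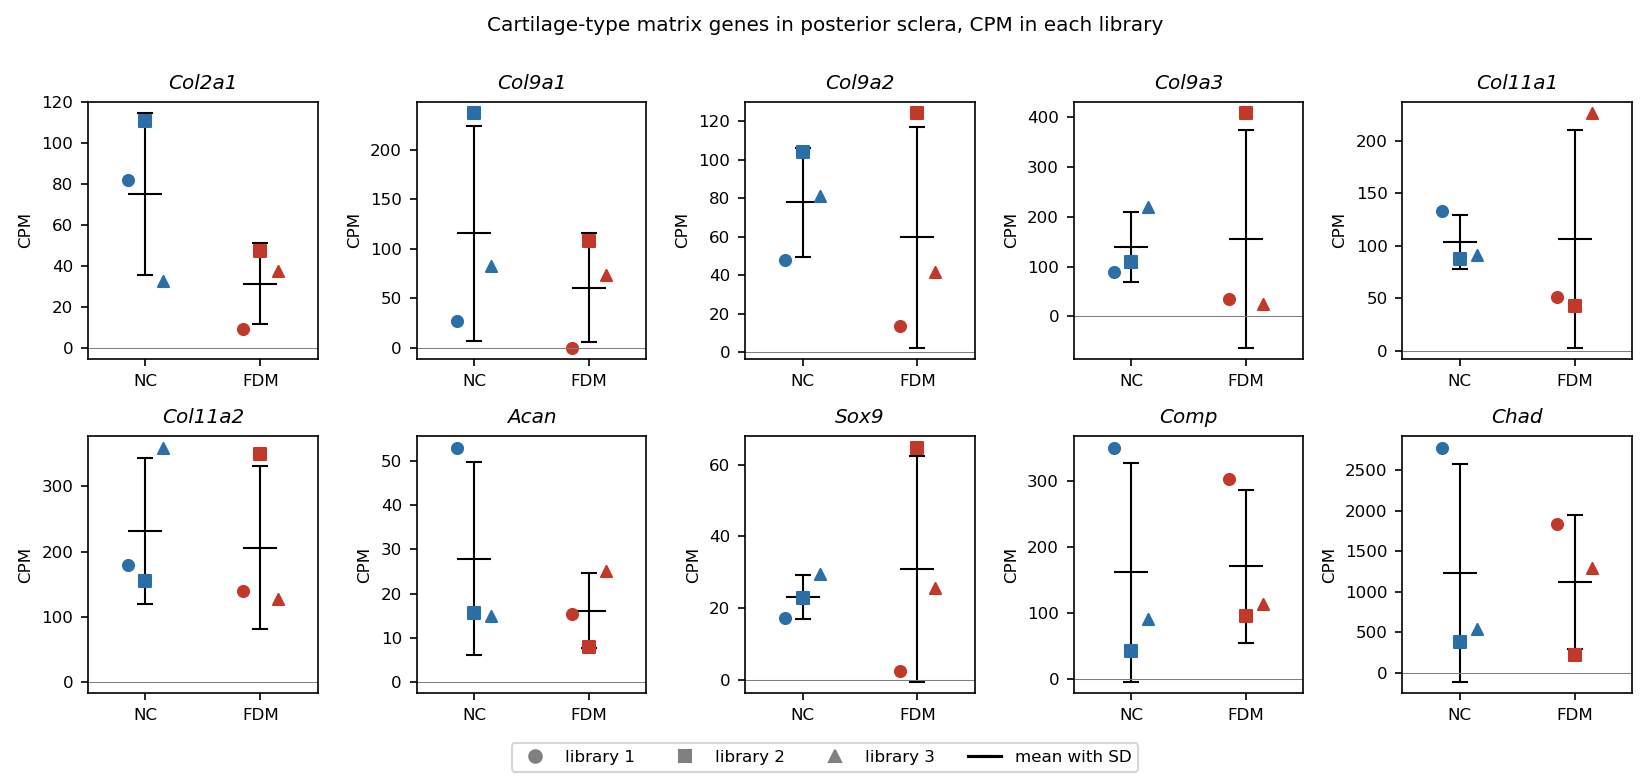
CPM (vertical axis, linear, with 0 marked by a grey line) of each of the 10 genes in the 3 NC (blue) and 3 FDM (red) libraries, with the mean and SD of each group in black and the library number given by the symbol. The groups overlap in every panel, and in most panels the libraries of a group lie several fold apart, as for Chad in NC at 378 to 2783 CPM.

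Col2a1, which encodes the chain of collagen II, had the smallest p of the 10 genes. It measured 8.97, 47.2 and 37.3 CPM in FDM 1, 2 and 3 and 81.6, 110.5 and 32.4 CPM in NC 1, 2 and 3. NC 3 lay below FDM 2 and FDM 3, and the remaining NC libraries lay above all FDM libraries. The means were 31.2 ± 19.9 CPM in FDM and 74.8 ± 39.5 CPM in NC (SD, n = 3). The log2 fold change was -1.26 ± 0.67 (SE), with a 95% interval of -2.78 to 0.25 and an unadjusted p of 0.0921 in edgeR's test. Its value was negative under all 15 alternative analyses and ran from -1.72 to -0.62. The value of -0.62 came from a fit with the mean photoreceptor level as a covariate, and without FDM 1 it was -0.82. The unadjusted p of Col2a1 in edgeR's test was 0.0373 without a filter (adjusted 0.999962) and 0.0312 without NC 3 (adjusted 0.999983). The marker lists of photoreceptors and inner retina had median log2 fold changes of -1.40 and -1.66. The part of retinal content in the Col2a1 level was not tested. Over the 6 libraries Col2a1, lowest in FDM 1 and highest in NC 2 as the photoreceptor markers were, had the largest Pearson r of the 10 genes with the photoreceptor level. This r was 0.902 (exact permutation p = 0.0278, 0.556 adjusted over the 20 relations computed) and Spearman's rho 0.829 (exact permutation p = 0.0583, adjusted 0.583). Without FDM 1 and NC 2, the libraries farthest from the median photoreceptor level, r was 0.479. Leaving out the ends of the range can lower r by itself, so this value cannot say what the relation rests on.

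The genes of collagen IX spread widely within both groups. Col9a1 had no count in FDM 1, where a count of 0 allows up to 0.296 CPM, and 108.1 and 73.7 CPM in FDM 2 and 3, against 26.6, 236.7 and 82.7 CPM in NC 1, 2 and 3. FDM 1 was thus the lowest and NC 2 the highest library, as for Col2a1. Its means were 60.6 ± 55.2 CPM in FDM and 115.3 ± 109 CPM in NC (SD, n = 3), and the log2 fold change of -0.93 ± 1.63 (SE) had a 95% interval of -4.77 to 2.92. Without NC 2 it was 0.10. The absence of Col9a1 from FDM 1 stands beside the 223 abundant genes that had no count in that library, and the part of that loss in the result was not tested.

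Col9a2 measured 14.0, 124.2 and 41.6 CPM in FDM 1, 2 and 3 and 48.2, 104.3 and 81.3 CPM in NC 1, 2 and 3. The FDM libraries held both the lowest and the highest value. Col9a2 had a log2 fold change of -0.38 ± 0.71 (SE), with a 95% interval of -1.98 to 1.22, and without FDM 1 it was 0.086. Col9a3 measured 34.3, 407.9 and 25.2 CPM in FDM against 88.9, 109.0 and 219.2 CPM in NC. A single library, FDM 2, lay above all NC libraries and FDM 1 and FDM 3 lay below them. The log2 fold change of Col9a3 was 0.16 ± 1.02 (SE), with a 95% interval of -2.18 to 2.51. Its sign turned when any of 3 libraries was left out, to -2.23 without FDM 2, -0.082 without NC 1 and -0.026 without NC 2. At -2.23 its unadjusted p was 0.00554 in edgeR's test, the smallest of any of the 10 genes with 1 library left out, and its adjusted p was 0.999976.

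Collagen IX needs the products of these genes together, so their counts were also set against each other within each library, which no scaling of libraries can alter. Gene length enters such a ratio and was not corrected, so only its change between libraries is read. Col9a3 counts divided by Col9a2 counts gave 2.45, 3.28 and 0.606 in FDM 1, 2 and 3 against 1.84, 1.04 and 2.70 in NC 1, 2 and 3. The exact (Clopper-Pearson) 95% intervals, which cover counting error only, were 0.534 to 0.687 for FDM 3 and 3.11 to 3.47 for FDM 2. The lowest and the highest ratio thus both came from FDM libraries. Col9a1 counts divided by Col9a2 counts gave 0.870 in FDM 2 and 1.77 in FDM 3, against 0.552, 2.27 and 1.02 in NC 1, 2 and 3. In FDM 1 no Col9a1 count stood beside 142 Col9a2 counts, and the interval of the ratio reached up to 0.0263. The order of the libraries differed between these ratios, as FDM 3 and NC 2 were high for Col9a1 and low for Col9a3.

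**Figure D2:**
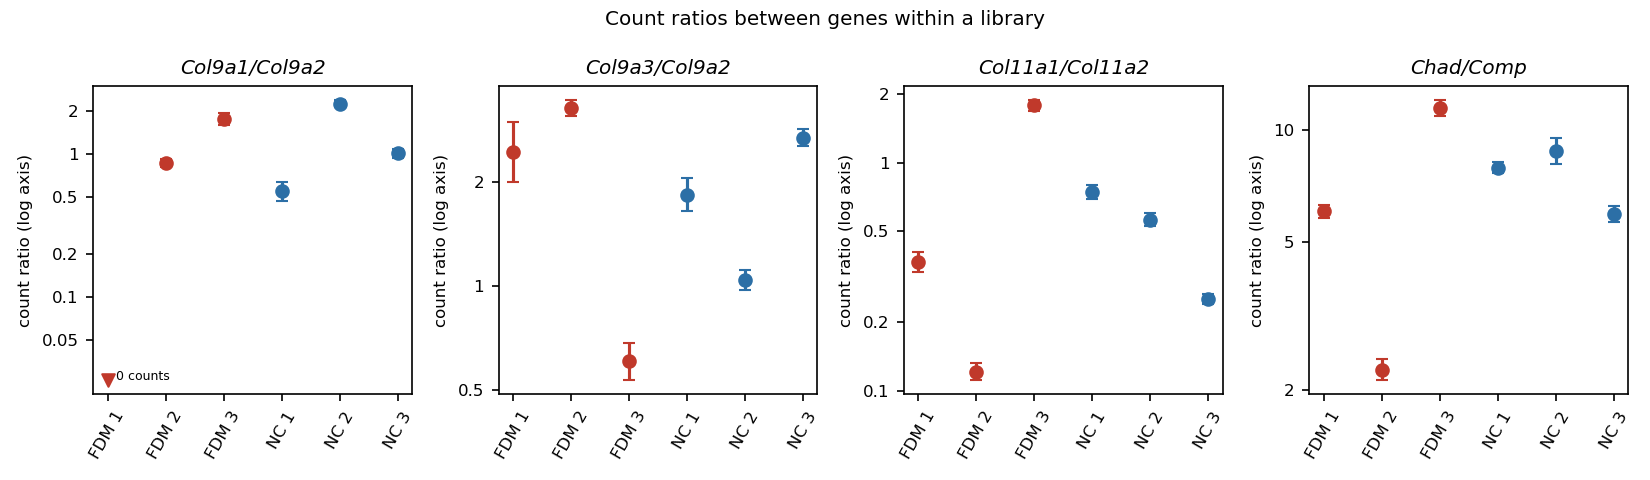
Ratio of the read counts of a pair of genes within each library (vertical axes, logarithmic), FDM in red and NC in blue, with exact 95% intervals for counting error. The triangle marks the upper bound for FDM 1, which had no Col9a1 count. In each panel the FDM libraries span a wider range than the NC libraries, from 0.606 to 3.28 against 1.04 to 2.70 for Col9a3 over Col9a2.

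The collagen XI genes had different libraries at their highest values. Col11a1 measured 51.6, 42.7 and 226.1 CPM in FDM 1, 2 and 3 and 133.2, 87.3 and 91.2 CPM in NC 1, 2 and 3. FDM 3 was above and FDM 1 and FDM 2 were below all NC libraries. This gave a log2 fold change of 0.040 ± 0.64 (SE), with a 95% interval of -1.39 to 1.47. Its sign depended on single libraries, with -1.20 without FDM 3, -0.097 without NC 2 and -0.12 without NC 3, and it was -0.14 with total-count scaling. At -1.20 its unadjusted p in edgeR's test was 0.0172 and its adjusted p 0.99983. Col11a2 measured 140.1, 350.2 and 127.1 CPM in FDM against 178.7, 154.8 and 359.8 CPM in NC, so FDM 2 and NC 3 stood above the rest. Its log2 fold change was -0.17 ± 0.55 (SE), with a 95% interval of -1.41 to 1.08, the narrowest interval among the 10 genes. It was 0.043 without FDM 1, 0.022 without FDM 3 and 0.23 without NC 3.

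Within a library, Col11a1 counts divided by Col11a2 counts gave 0.368, 0.122 and 1.78 in FDM 1, 2 and 3 against 0.745, 0.564 and 0.254 in NC 1, 2 and 3. FDM 3, with the highest ratio, also had the highest summed fibroblast markers, and FDM 2 and NC 3, with the lowest ratios, had 18775 and 17514 CPM of these markers, while NC 2, with the lowest marker sum of 6555 CPM, had a ratio of 0.564. Col11a2 and Col9a3 were highest in the same libraries, FDM 2 and NC 3, with Pearson r of 0.914 and Spearman rho of 0.886 between them over 6 libraries, given as a description. These libraries had low photoreceptor levels of 1901 and 636.8 CPM and muscle marker sums of 70503 and 29203 CPM. FDM 1, however, had a still lower photoreceptor level of 296.1 CPM and a muscle marker sum of 65084 CPM, with Col9a3 at 34.3 CPM and Col11a2 at 140.1 CPM. The part of muscle or retinal content in these levels was not tested.

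Acan, which encodes the large water-binding proteoglycan, measured 15.4, 7.94 and 25.0 CPM in FDM 1, 2 and 3 and 53.1, 15.7 and 14.8 CPM in NC 1, 2 and 3. NC 1 stood above the other libraries, among which the groups overlapped. Acan had a log2 fold change of -0.79 ± 0.73 (SE), with a 95% interval of -2.42 to 0.85, and without NC 1 it was 0.078. Over 6 libraries the Pearson r of Acan was 0.832 with Chad, 0.732 with Col11a1 and -0.335 with Col9a2, with Spearman rho of 0.714, 0.771 and -0.486, given as a description.

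Sox9 measured 2.37, 64.8 and 25.7 CPM in FDM 1, 2 and 3 and 17.1, 22.7 and 29.4 CPM in NC 1, 2 and 3. The FDM libraries spanned a 27.4-fold range around the NC libraries, which spanned 1.72-fold. FDM 1 held 24 Sox9 counts and FDM 2 held 898. For Sox9 the log2 fold change was 0.42 ± 0.92 (SE), with a 95% interval of -1.65 to 2.50, and it was -0.72 without FDM 2 and 0.97 without FDM 1. As a description over 6 libraries, the Pearson r of Sox9 was 0.920 with Col9a1, 0.916 with Col9a2, 0.675 with Col2a1 and -0.230 with Acan, while the Spearman rho of these pairs was 0.657, 0.714, 0.0857 and -0.600. FDM 1 was the lowest library for Sox9, Col2a1, Col9a1 and Col9a2 alike. By mean log2 CPM, FDM 1 was also the lowest for the Müller glia markers, at 1.80. By their summed level FDM 3 was the lowest, at 1434 CPM against 1735 CPM in FDM 1. The part of Müller glia content in the Sox9 level was not tested. Sox9 counts divided by Col2a1 counts gave 0.264, 1.37 and 0.687 in FDM 1, 2 and 3 against 0.210, 0.206 and 0.907 in NC 1, 2 and 3. Its correlation with the photoreceptor level was 0.582 (exact permutation p = 0.269, adjusted 0.622) by Pearson's r and 0.0857 (exact permutation p = 0.919, adjusted 0.919) by Spearman's rho, and r was -0.485 without FDM 1 and NC 2.

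Chad, the gene of the glycoprotein chondroadherin, took from 0.0200% of all counts in FDM 2 (exact 95% interval 0.0193% to 0.0207%) to 0.274% in NC 1 (0.271% to 0.277%). It measured 1837, 216.5 and 1301 CPM in FDM 1, 2 and 3 and 2783, 378.0 and 541.7 CPM in NC 1, 2 and 3. FDM 1, FDM 3 and NC 1 were high and FDM 2, NC 2 and NC 3 low, so both groups held high and low libraries. The means of 1118 ± 826 CPM in FDM and 1234 ± 1344 CPM in NC (SD, n = 3) differed by less than the spread within either group. Chad had a log2 fold change of -0.14 ± 0.98 (SE), with a 95% interval of -2.35 to 2.06. Its sign turned without NC 1, at 1.28, and without FDM 2, at 0.35. The 3 libraries with high Chad were the 3 with the highest summed fibroblast markers, at 38060 CPM or more against 18775 CPM or less. By the mean log2 CPM of these markers the split was not there, as FDM 1 had 8.54 and lay below NC 3, with low Chad, at 8.70. Over all 6 libraries Pearson's r between Chad and the mean fibroblast marker level was 0.602 (exact permutation p = 0.217, adjusted 0.622) and Spearman's rho 0.657 (exact permutation p = 0.175, adjusted 0.594), and r was 0.651 without NC 2 and FDM 3.

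Comp measured 303.8, 95.2 and 113.5 CPM in FDM 1, 2 and 3 and 351.2, 43.1 and 91.0 CPM in NC 1, 2 and 3. FDM 1 and NC 1 stood above the other libraries. The means were 170.8 ± 116 CPM in FDM and 161.7 ± 166 CPM in NC (SD, n = 3), and the log2 fold change was 0.079 ± 0.79 (SE) with a 95% interval of -1.71 to 1.87. It was -0.63 without FDM 1, 1.34 without NC 1, -0.38 without NC 2 and -0.23 without NC 3, and -0.13 with total-count scaling. As a description over the 6 libraries, Comp and Chad had a Pearson r of 0.826 and a Spearman rho of 0.829 with each other and a Pearson r of -0.740 and -0.793 with Col9a2. Chad counts divided by Comp counts gave 6.05, 2.27 and 11.5 in FDM 1, 2 and 3 against 7.93, 8.78 and 5.96 in NC 1, 2 and 3. The FDM ratios spanned the whole range of the NC ratios.

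**Figure D3:**
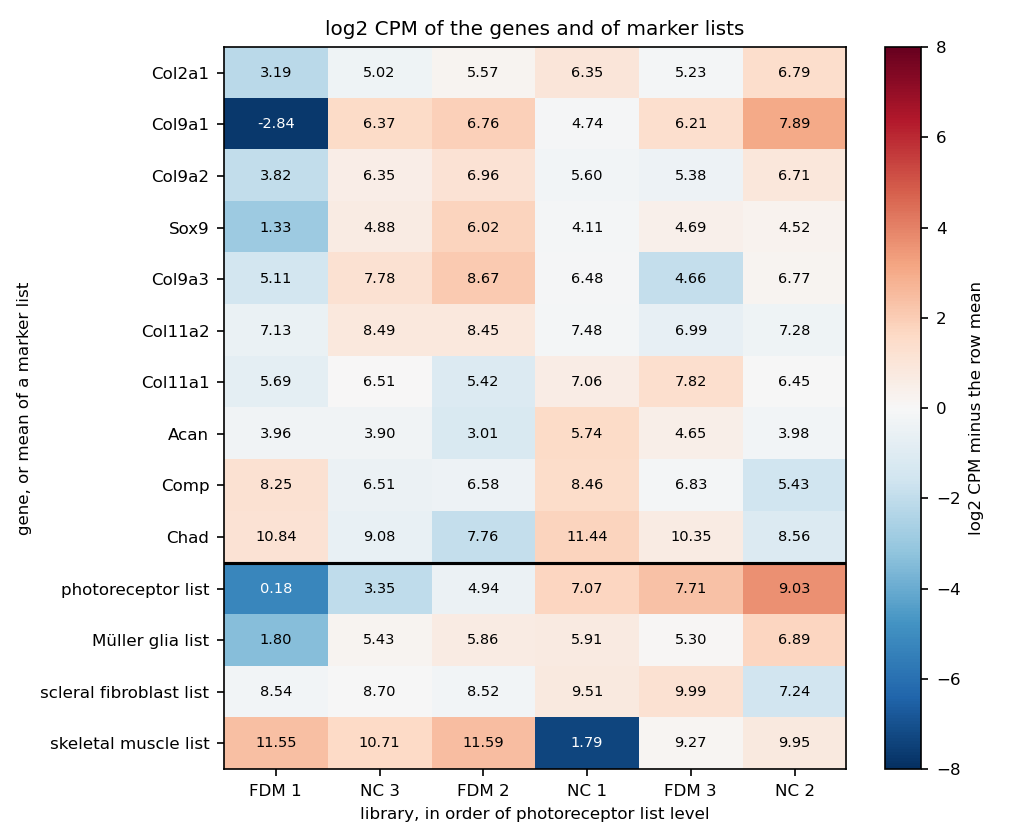
Log2 CPM (numbers) of the 10 genes and the mean log2 CPM of 4 marker lists in each library, with libraries ordered from left to right by the photoreceptor level and colours giving the difference from the mean of the row. Col2a1, Col9a1, Col9a2 and Sox9 are lowest in FDM 1, the library with the lowest photoreceptor level of 0.18. Comp and Chad are high in FDM 1 and NC 1, and Chad is also high in FDM 3, at 10.35.

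The 10 genes had their high and low libraries in different places. In the map of levels Col2a1, Col9a1, Col9a2 and Sox9 had low values in FDM 1, and Col9a3 and Col11a2 were highest in FDM 2 and NC 3. Acan, Comp and Chad were highest in NC 1, and Col11a1 in FDM 3. The first sets overlap, as Sox9 was also highest in FDM 2 (64.8 CPM) and NC 3 (29.4 CPM). Col9a2 was highest in FDM 2 as well (124.2 CPM), with a Spearman rho of 0.886 with Col9a3. These sets were drawn after the values were seen and carry no test. Of the 20 correlations of the 10 genes with the photoreceptor and fibroblast levels, Pearson's r ran from -0.480 to 0.902 and the smallest adjusted exact permutation p was 0.556. Both sides of each correlation are shares of the same library. Against the photoreceptor level Col9a1 had r of 0.789 (exact permutation p = 0.133, adjusted 0.622) and Spearman's rho of 0.543 (exact permutation p = 0.297, adjusted 0.594), and without FDM 1 and NC 2 its r was -0.523. Col11a2 had r of -0.236 (exact permutation p = 0.639, adjusted 0.870) and rho of -0.314 (exact permutation p = 0.564, adjusted 0.752), and without these libraries r was -0.944.

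**Figure D4:**
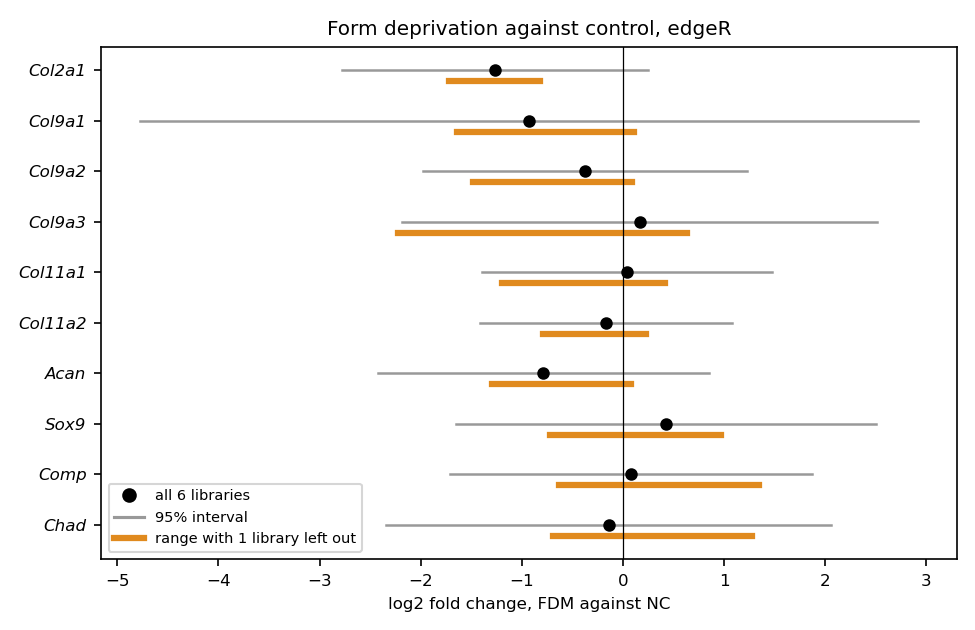
Log2 fold change of each of the 10 genes, FDM against NC (horizontal axis), with all 6 libraries (points), its 95% interval (grey) and the range of the values obtained with 1 library left out (orange). All 10 intervals cross 0, and Col2a1, from -1.72 to -0.82, is the only gene whose orange range stays on 1 side of 0.

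The 95% intervals were wide. For Col11a2, the most precisely measured, the interval reached from -1.41 to 1.08, and for Col9a1 from -4.77 to 2.92. Differences within these bounds cannot be told from none with these libraries. The common biological coefficient of variation of the 6 libraries, a measure of spread between libraries of a group, was 0.933.

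The patterns most like those of Col2a1 and Sox9 were sought among 12163 genes with a symbol and a mean log2 CPM of at least 1. For Col2a1 the closest over 6 libraries were Cdk20 (Pearson r 0.996), Arf3, Znf76, Fam53a and Hapln4 (0.991), the last encoding a link protein of the hyaluronan matrix of the brain. For Sox9 they were Slc5a5 (0.999), which encodes the sodium iodide symporter, Dhx33, Ctbs, Sumf2 and Cd37 (0.993). Of the genes closest to Sox9, 4 of 5 had no count in FDM 1. With 6 libraries such likeness is common, as 503 genes had r above 0.9 with Col2a1 and 642 with Sox9.

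A wider list of 40 other cartilage genes was examined beside the 10. All 40 were in the table, and 32 passed the filter on low counts. None of the 32 passed edgeR's test (0 called higher and 0 lower), and at an unadjusted p below 0.05 the count was 0 in edgeR and DESeq2 and 1 in limma-voom, where 0.954%, 1.72% and 1.03% of all genes lay below it. DESeq2 gave an adjusted p for 15 of the 32 and called 0 of them. Their log2 fold changes were positive for 21 and negative for 11, with a median of 0.29 against 0.020 for all genes. The groups did not overlap for 1 of the 32, beside 5.55% of all genes. This was Matn3, which encodes the cartilage matrix linker matrilin-3, with 0, 5 and 0 counts in FDM 1, 2 and 3 against 21, 44 and 50 counts in NC 1, 2 and 3. Its fitted log2 fold change of -4.23 ± 2.36 (SE) rests on these few counts, had a 95% interval of -9.56 to 1.09 and was -8.14 without FDM 2.

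Genes used as narrow markers of cartilage differed in level, and several were at or near 0. Matn1, the matrilin gene of tracheal and epiphyseal cartilage, had 0, 1 and 11 counts in FDM 1, 2 and 3 against 0, 3 and 9 in NC 1, 2 and 3. Snorc, which encodes a small proteoglycan of chondrocytes, had 11 counts in NC 2 and none in the other libraries. Epyc, a leucine-rich proteoglycan gene of growth cartilage, had 0 to 24 counts in FDM and 0 to 33 in NC. Clec3a and Mia, named after their values were seen, encode a cartilage lectin and a small protein secreted by chondrocytes and reached higher counts. Clec3a had 0, 15 and 169 counts in FDM 1, 2 and 3 against 136, 56 and 376 in NC 1, 2 and 3. Mia had 0, 69 and 205 counts in FDM against 0, 194 and 66 in NC, so the groups overlapped for both. Other tested genes of the wider list had more counts. Col10a1 had 43 to 709 counts in FDM and 113 to 372 in NC. Cilp2, also named after its values were seen, had 94 to 742 and 101 to 1013. None of the 8 untested genes of the list had more than 54 counts in any library. The name cartilage-type refers here to the kind of protein these genes encode.

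Tested genes of the wider list also spread widely between libraries of a group. Hapln1, the link protein that ties aggrecan to hyaluronan, measured 0, 3.97 and 0.502 CPM in FDM 1, 2 and 3 and 6.46, 1.81 and 2.08 CPM in NC 1, 2 and 3. Matn4 measured 23.8 to 55.4 CPM in the FDM libraries and 15.3 to 103.3 CPM in the NC libraries, highest in NC 1 like Acan, Comp and Chad. Prg4, the gene of the joint lubricant lubricin, measured 2.74 to 34.8 CPM in the FDM libraries and 1.27 to 21.6 CPM in the NC libraries. Ucma, a gene of juvenile cartilage, measured 0.938 to 11.9 CPM in the FDM libraries and 1.94 to 19.9 CPM in the NC libraries, and Cnmd, which encodes the angiogenesis inhibitor chondromodulin, 1.87 to 23.4 and 3.62 to 29.3 CPM. The groups overlapped for each of these genes. The log2 fold change of Hapln1 was -1.20 ± 2.04 (SE) and ran from -3.70 without FDM 2 to -0.39 without NC 1. Log2 fold changes were -0.23 for Matn4, 0.77 for Prg4, -0.41 for Ucma and -0.54 for Cnmd. The direction turned for Matn4 without NC 1 (1.13) or FDM 3 (0.0081), for Prg4 without FDM 1 (-0.50), for Ucma without NC 1 (1.46) or FDM 2 (0.096) and for Cnmd without NC 2 (0.54), and with limma-voom in place of edgeR for Matn4 (0.34) and Ucma (0.012).

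The collagen genes Col10a1, a marker of hypertrophic chondrocytes, and Col27a1, a fibrillar collagen of cartilage, had log2 fold changes of 0.84 ± 0.91 and -0.54 ± 0.58 (SE). Without FDM 3 that of Col10a1 was -0.14, and that of Col27a1 ran from -1.29 without FDM 2 to -0.14 without FDM 1. The SOX9 partner genes Sox5 and Sox6 had 0.97 ± 1.53 and 0.80 ± 0.94 (SE). Without NC 1 these were 0.64 and 0.27, and without NC 3 that of Sox6 was 1.46. The genes of smallest p in the list were Adamts5, Matn3, Trps1 and Csgalnact1. Adamts5, which encodes an aggrecan-cleaving protease, measured 59.2, 33.6 and 86.5 CPM in FDM 1, 2 and 3 and 35.2, 27.8 and 30.1 CPM in NC 1, 2 and 3, so that FDM 2 lay within the NC range. Its log2 fold change of 0.95 ± 0.47 (SE) had an unadjusted p of 0.0724 in edgeR's test (adjusted 0.999999), and it was 0.52 without FDM 3. Trps1, a transcription factor gene of the growth plate, had 0.88 ± 0.64 (0.40 without FDM 3), and Csgalnact1, which starts chondroitin sulfate chains, 0.65 ± 0.57 (0.37 without NC 2 and 1.25 without NC 3).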

How the data were processed

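The deposited table gives unnormalized counts of reads for each gene in 6 columns, 1 per library, matched to the samples by title. The submitters' processing notes name Trimmomatic, STAR and HTSeq as the authors' tools, without roles or versions. Genome build, annotation and strand setting: not given in the sources used here. Genes that overlap, on either strand, may therefore share or lose reads. No transcript lengths were used, and levels are therefore compared within a gene and not between genes.

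The analysis used edgeR 4.0.16 in R 4.3.3 (filterByExpr, TMM scaling, robust quasi-likelihood test, group as the only term, Benjamini-Hochberg adjustment over all 16348 genes tested, threshold 0.05). CPM are counts scaled by TMM library sizes. Log2 levels use a prior count of 2. SE was derived from the log2 fold change and the F statistic, and 95% intervals use the degrees of freedom of that test. Values are given as mean ± SD over 3 libraries. P-values of the fits set the difference between the groups against the spread between these libraries. Alternatives were DESeq2 1.42.0, limma-voom (limma 3.58.1), RLE and total-count scaling, no filter, 1 CPM in 3 libraries, the replicate number as a block, the mean photoreceptor level as a covariate, each library left out and both libraries numbered 1 left out. The fits were run on data simulated at a low and at a high spread between libraries, and recovery at the high spread is not given here. Recovery of the changes put in was required only at a spread between libraries well below that seen here. That requirement cannot say which changes could be found at the spread of these data. Correlations use scipy 1.17.1, exact two-sided permutations of all pairings and Benjamini-Hochberg adjustment, and, like the count ratios, were added after the data were seen. Figures were drawn with matplotlib 3.10.9.

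The genes and lists were chosen with earlier results of these data known. The genes named are the 10 genes, 13 named genes of the wider list where tested, the 4 of smallest p in it, 10 markers of library content, not all of them printed, and the 5 genes most correlated with Col2a1 and with Sox9. Untested genes of the wider list were named by their counts. Counting floors take 3 counts.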

Additional observations from a re-analysis of the deposited data

How the results depend on the processing

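Of the 10 genes and of the other cartilage genes 0 were called under any of the 15 alternatives, and over all genes only DESeq2 gave calls (9 genes). DESeq2 gave no adjusted p for 17 of the 32 other cartilage genes tested, which it could therefore not call. The median log2 fold change of the 10 genes, -0.16 with all libraries, ran from -0.76 without FDM 2 to -0.0016 without NC 1 when 1 library was left out, and was -0.56 with the replicate number as a block and 0.17 without both libraries numbered 1. In 119 of 150 comparisons of a gene of the 10 with its value under an alternative the direction was the same and in 31 it turned, and for the 13 tested genes named from the wider list, 4 of them taken for their small p, the numbers were 181 and 14. With limma-voom the sign turned for Col9a3 (-0.84), Col11a1 (-0.34), Sox9 (-0.21), Matn4 (0.34) and Ucma (0.012). With total-count scaling it turned for Col9a3 (-0.093), Col11a1 (-0.14) and Comp (-0.13), without a filter for Col11a1 (-0.023) and with the photoreceptor covariate for Comp (-0.46). Without both libraries numbered 1 it turned for Acan (0.036), Chad (0.66), Matn4 (0.73), Hapln1 (0.087), Prg4 (-1.05) and Ucma (0.45). With 1 library left out the log2 fold changes ran from -1.64 to 0.10 for Col9a1, -1.49 to 0.086 for Col9a2, -2.23 to 0.63 for Col9a3, -1.20 to 0.42 for Col11a1, -0.80 to 0.23 for Col11a2, -1.29 to 0.078 for Acan, -0.72 to 0.97 for Sox9, -0.63 to 1.34 for Comp and -0.70 to 1.28 for Chad. For the wider list these ranges were -0.66 to 1.13 for Matn4, -0.50 to 2.19 for Prg4, -2.45 to 0.54 for Cnmd, -1.35 to 1.46 for Ucma and -0.14 to 1.35 for Col10a1. Col9a1, with no count in FDM 1, had -2.49 with limma-voom. The cause of these changes was not tested.

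Whether the replicate numbers pair the libraries cannot be settled with 3 libraries per group. Deviations from the group means correlated at 0.0951, 0.0335 and -0.152 for the numbers 1, 2 and 3. Each lay below the 0.1 taken as the minimum for a pairing. FDM 1 correlated best with NC 1, FDM 2 with NC 3 (0.0720) and FDM 3 with NC 2 (0.261). With the replicate number as a block 0 genes were called, and the sign turned for Col9a3 (-0.98), Col11a1 (-0.41), Sox9 (-0.43) and Matn4 (0.22). Low counts limit Matn3, with at most 50 counts in a library, and the 8 untested genes of the wider list, with at most 54. They also limit other tested genes of that list, such as Hapln1 (0 to 66 counts) and Sox5 (11 to 85 counts).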
